A study of Mus musculus with 12 samples.

Results

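Fos, Jun, Junb, Egr1, Atf3, Ier2, Ier3, Myc, Btg2 and Zfp36 are immediate early and stress response genes, chosen by symbol from the Ribo-seq table, where they make up 10 of 25033 entries. Ribo-seq sequences the stretches of mRNA that ribosomes shield from nuclease, so the reads of a gene are a count of ribosomes caught on its mRNA. By the study's methods the liver was treated with the drug cycloheximide before lysis, so the levels are those after that step. Its effect on these genes was not tested. All libraries were of liver from male C57BL/6 mice aged 16 weeks. HFD mice had eaten a high-fat diet for 8 weeks (n = 3 libraries), and LYC mice the same diet with lycopene, a tomato carotenoid, at 0.33% w/w (n = 3 libraries). There was no group on standard feed among the libraries used here, so each value is one under high-fat feeding. The treatment label of the LYC samples mentions only the high-fat diet, and their lycopene comes from the titles and the study's methods. The labels also say that material of the groups was pooled before library construction, while the titles number each library as a replicate. If the libraries do not stand for single mice, p-values measure only the spread between these libraries, which may be technical.

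Immediate early genes are switched on within minutes of a growth factor, a cytokine or cellular stress, by transcription factors already present in the cell. Fos, Jun, Junb and Atf3 encode leucine zipper proteins that pair to form AP-1 type factors, Egr1 a zinc finger factor and Myc a growth regulator. Their mRNAs are short-lived, and Zfp36 and Btg2, themselves early genes, encode proteins that speed the removal of poly(A) tails. In liver this programme is best known from regeneration and the acute response to injury or cytokines.

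Zfp36 protein, tristetraprolin, binds the AU-rich motif TATTTAT (U for T in the RNA) in 3′ UTRs, a sequence that some of the other genes carry. In the mouse genome build GRCm38 with GENCODE gene models, 6 of the 10 genes had at least 1 such site on the sense strand of their 3′ UTR, where 25.5% of 20641 genes with a 3′ UTR did. Ier3 had 4 sites in 613 bases, Zfp36 3 sites in 774 bases and Fos 2 sites in 815 bases. Of UTRs within 10% of those lengths, 16.9%, 19.5% and 20.4% held a site. Jun, Atf3 and Btg2 had 1 site each, where 31.6%, 31.4% and 44.5% of UTRs of like length held one, and Junb, Egr1, Ier2 and Myc had none. The windows of 30 bases below show sites of the 6 genes, 5′ to 3′ on the sense strand and written as DNA, with TATTTAT in capitals.
Zfp36, chr7:28376958-28376987, minus strand: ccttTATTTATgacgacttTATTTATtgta
Ier3, chr17:35822484-35822513, plus strand: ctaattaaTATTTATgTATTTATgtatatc
Fos, chr12:85477102-85477131, plus strand: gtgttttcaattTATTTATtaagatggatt
Jun, chr4:95049079-95049108, minus strand: tttgcttgtgcaTATTTATaatagcgttcg
Atf3, chr1:191170338-191170367, minus strand: gaaaatattactTATTTATcccagtattcc
Btg2, chr1:134077249-134077278, minus strand: aaaatgaagagcTATTTATacatgtttttt
Zfp36 and Ier3 each show 2 sites within 1 window. The letters describe the mRNA and are not evidence of binding in these livers.

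Depth set what could be seen of these genes. Library totals were 834406 to 4405540 reads in HFD and 311048 to 412112 reads in LYC, a 6.91-fold difference in median depth. Genes of small non-coding RNA held 2.40% to 3.91% of the reads assigned to genes in HFD libraries and 7.81% to 12.4% in LYC libraries, a share that moved with the groups. With TMM factors computed without those genes, the log2 fold change of Zfp36 was 0.98, as with them, and no member was called. The part of that share in the results was not tested otherwise. Only Jun and Zfp36 passed the filter on low reads, and they held 61.9% of the reads on the 10 genes. The 10 genes had 959 reads in HFD and 162 in LYC in all. 5 genes had a read in all 6 libraries, and 5 had fewer than 10 reads over the 3 LYC libraries. The second deposited table, labelled RNA-seq, was not an independent readout. Its counts in LYC1, LYC2 and LYC3 equalled the footprint reads of the same-numbered library for all 10 genes, and for 78.2% to 78.5% of the genes above 0 in either. These shares are among the 11129 genes whose reads were recovered with the gene lengths that this second table implies. Its HFD1, HFD2 and HFD3 counts were most like those of Ribo-seq HFD2, HFD3 and HFD1, with 26.2%, 49.4% and 33.6% of genes identical, where all other pairs of libraries gave 0.323% to 7.30%. mRNA level and translational efficiency were therefore not analysed here.

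**Figure D1:**
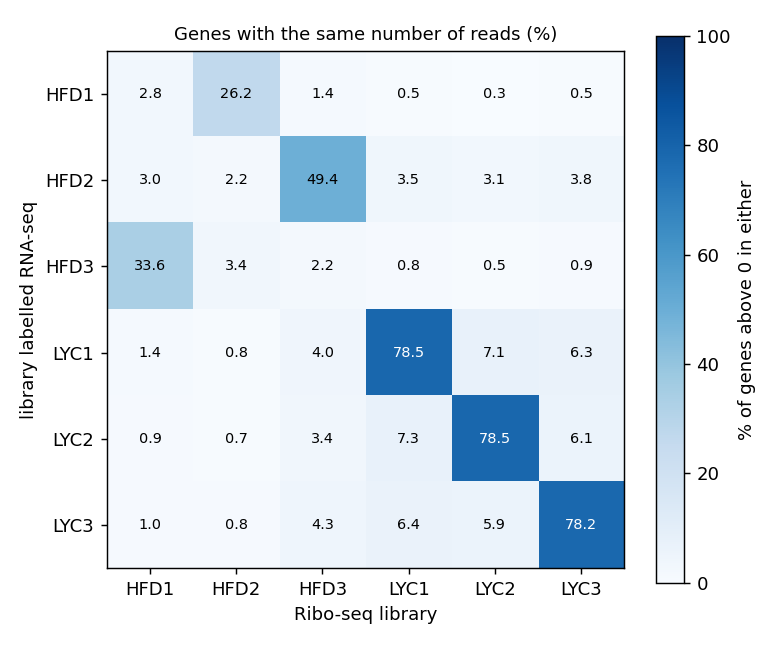
Share of genes (%) with the same number of reads in each pair of a library labelled RNA-seq (rows) and a Ribo-seq library (columns), over genes above 0 in either. Only the 11129 genes whose reads were recovered with gene lengths from the table labelled RNA-seq are compared. The LYC libraries match on the diagonal at 78.2% to 78.5%, and the HFD libraries match a library of another number at 26.2% to 49.4%.

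Across the 10 genes, the comparison of LYC with HFD asks whether lycopene feeding went with another footprint level of the early response. A call needed a limma p below 0.01, unadjusted, together with a log2 fold change beyond 1 in either direction. Of the 2 genes tested, Jun and Zfp36, none was called, where 13.3% of 5775 genes tested were called, and 7.00% were called higher in LYC. The other 8 could not be called. Zfp36 came closest, with a higher RPKM in each LYC library than in any HFD library. The other 9 had libraries that overlapped between the groups on the TMM-scaled values. Library by library, values below are RPKM as deposited. Mean RPKM was higher in LYC for 4 genes (Fos, Myc, Btg2, Zfp36) and lower for 6. The median log2 difference over the 10 genes was 0.0097, where it was −0.19 over all 15749 genes above 0, on log2(RPKM / TMM factor + 1). Zfp36 was the only one of the 10 with an unadjusted p below 0.05 when the filter was dropped.

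**Figure D2:**
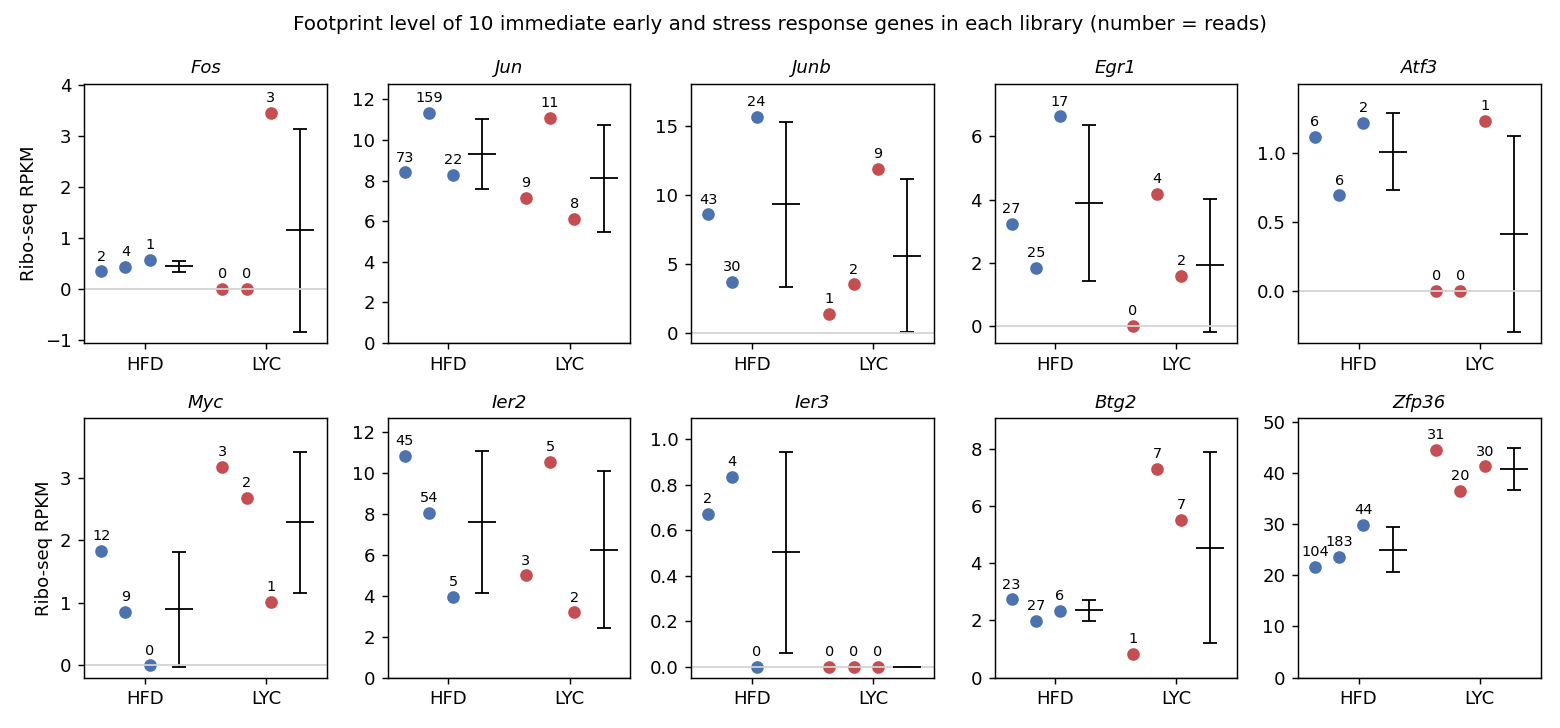
Ribo-seq RPKM (linear axis, 1 panel a gene) of each HFD (blue) and LYC (red) library, with its recovered reads as a number; the bar and whiskers beside the points are the group mean ± SD (n = 3). Zfp36 is the only gene whose LYC points, 36.4 to 44.5 RPKM, all lie above the HFD points, 21.6 to 29.9 RPKM.

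Among the members that encode AP-1 factors, Jun (chr4:95049036-95052222, GRCm38), whose product is the central AP-1 subunit, was the best covered. Its level was 8.40, 11.3 and 8.27 RPKM in HFD1, HFD2 and HFD3, on 73, 159 and 22 reads. It was 7.16, 11.1 and 6.09 RPKM in LYC1, LYC2 and LYC3, on 9, 11 and 8 reads. The groups overlapped, LYC2 lying beside HFD2 and the other LYC libraries below all HFD libraries in RPKM. After TMM scaling LYC3 stayed below them, LYC1 lay within their range and LYC2 above it. The log2 fold change was 0.057 with a standard error of 0.31 (limma adjusted p = 0.920). With TMM scaling, 28 reads in LYC set against 254 in HFD gave a read rate ratio of 1.02, with a 95% counting interval of 0.662 to 1.51. The sign of the Jun difference depended on the scaling, since without a scaling factor it was −0.21.

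Junb, a Jun relative that often restrains Jun's activity, varied widely within the groups. It stood at 8.57, 3.70 and 15.6 RPKM in HFD1 to HFD3, a 4.22-fold range, on 43, 30 and 24 reads. In LYC1 to LYC3 it stood at 1.38, 3.49 and 11.9 RPKM, on 1, 2 and 9 reads. HFD3 and LYC3 were the high library of their group, and the means of 9.30 ± 6.00 and 5.58 ± 5.55 RPKM (SD, n = 3 each) were closer than either spread. The ratio of read rates was 1.14 (0.570 to 2.09), although the RPKM means gave 0.600. The summed reads weight each library by its depth and use TMM-scaled totals, and the RPKM means do neither.

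Fos, the usual partner of Jun, was near the limit of detection. It had 0.348, 0.431 and 0.568 RPKM in HFD1 to HFD3, on 2, 4 and 1 reads. LYC1 and LYC2 had no read, where 3 reads would have been 3.61 and 4.57 RPKM, and LYC3 had 3.45 RPKM on 3 reads. The higher LYC mean, 1.15 ± 1.99 RPKM (SD, n = 3), came from that library alone. At the HFD rate 0.759 reads were due in LYC, so a lower Fos was not detectable at this depth. The read rate ratio of 3.95 had an interval of 0.660 to 17.3.

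Atf3, a stress-induced factor of the same family, was also low. It read 1.11, 0.689 and 1.21 RPKM in HFD1 to HFD3, on 6, 6 and 2 reads. LYC1 and LYC2 had no read and LYC3 had 1 read, worth 1.23 RPKM. That single read put LYC3 at the level of the HFD libraries. The counting interval of the read rate ratio ran from 0.0156 to 4.33.

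Egr1, a zinc finger factor induced through MAPK signalling and Srf, resembled Junb in HFD. Its levels were 3.22, 1.85 and 6.63 RPKM in HFD1 to HFD3, on 27, 25 and 17 reads. LYC1 had no read, LYC2 4.19 RPKM on 4 reads and LYC3 1.58 RPKM on 2 reads. HFD3 was again the highest library, and LYC2 lay between HFD1 and HFD3. The 6 LYC reads were set against 7.48 due at the HFD rate, a ratio of 0.802 (0.285 to 1.84).

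Myc, which drives growth and ribosome production, leaned to LYC on few reads. It had 1.83 and 0.852 RPKM in HFD1 and HFD2, on 12 and 9 reads, and no read in HFD3. In LYC1 to LYC3 it had 3.17, 2.68 and 1.01 RPKM, on 3, 2 and 1 reads. LYC1 and LYC2 lay above all HFD libraries and LYC3 within them. The log2 difference of 1.02 had a two-sided exact permutation p of 0.2, where 0.1 is the smallest that 3 against 3 libraries allow. Its size followed the pseudocount, at 2.19 with one of 0.1 and 0.38 with one of 5. The read rate ratio of 2.64 had an interval of 0.870 to 6.75.

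Ier2 and Ier3 are both early response genes, Ier2 coding for a nuclear protein and Ier3 for a regulator of cell survival. Ier2 had 10.8, 8.05 and 3.94 RPKM in HFD1 to HFD3, on 45, 54 and 5 reads. It had 5.00, 10.6 and 3.19 RPKM in LYC1 to LYC3, on 3, 5 and 2 reads. HFD3 and LYC3 were the low library of their group, and the groups covered nearly the same range. The 10 LYC reads compare with 11.3 due at the HFD rate, a ratio of 0.887 (0.413 to 1.70). Ier3 had the fewest reads of the 10 genes, with 0.673 and 0.833 RPKM in HFD1 and HFD2, on 2 and 4 reads, and no read in HFD3 or in any LYC library. At the HFD rate 0.650 reads were due in LYC, and the interval of the ratio reached 7.83, so the 0 in LYC does not tell the groups apart.

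Btg2, an antiproliferative partner of the CCR4-NOT deadenylase, differed in count but not between libraries as a group. It had 2.74, 1.99 and 2.33 RPKM in HFD1 to HFD3, on 23, 27 and 6 reads. It had 0.822, 7.30 and 5.51 RPKM in LYC1 to LYC3, on 1, 7 and 7 reads. LYC1 lay below all HFD libraries and LYC2 and LYC3 above them. The 15 LYC reads exceeded the 6.07 due at the HFD rate, and the ratio of 2.47 had a counting interval (1.30 to 4.43) that does not contain 1. That interval covers counting error only, and the spread between the LYC libraries was wider, with a two-sided exact permutation p of 0.4. Without LYC1, Btg2 passed the filter and both limits of a call (log2 fold change 1.29, limma adjusted p = 0.0643), so LYC1 decided that value.

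**Figure D3:**
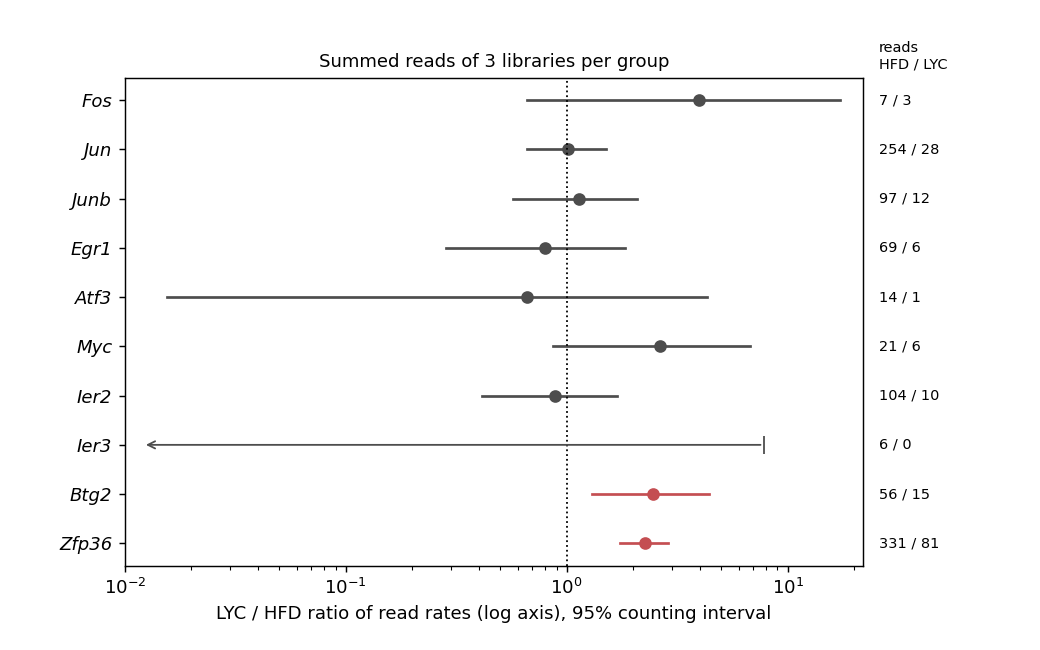
Ratio of the summed, TMM-scaled read rates of LYC over HFD for each gene (log axis; point and 95% exact interval, counting error only; red where the interval does not contain 1), with the summed reads at the right. 8 of the 10 intervals contain 1, Btg2 and Zfp36 lie above it, and Ier3, with no LYC read, has an upper limit alone.

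Zfp36 (chr7:28376784-28379228, GRCm38) had the highest footprint level of the 10 genes in all 6 libraries. It stood at 21.6, 23.5 and 29.9 RPKM in HFD1 to HFD3, on 104, 183 and 44 reads. It stood at 44.5, 36.4 and 41.2 RPKM in LYC1 to LYC3, on 31, 20 and 30 reads. The lowest LYC library, LYC2, lay above the highest HFD library, HFD3. The means were 25.0 ± 4.32 and 40.7 ± 4.07 RPKM (SD, n = 3 each). The log2 fold change was 0.98 with a standard error of 0.28, and the unadjusted limma p of 0.00785 became 0.0599 after Benjamini-Hochberg adjustment over the 5775 genes tested. The p passed its limit, the fold change fell short of 1 and the gene was not called.

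Of the 10 genes 1 had libraries that did not overlap with LYC higher, against 8.99% of the genes above 0, and of the 2 that passed the filter 1 did, against 18.7% of the genes tested. Zfp36 therefore shared its pattern with many genes. The 81 LYC reads compare with 35.9 due at the HFD rate, a read rate ratio of 2.26 (1.75 to 2.89). On the recovered reads, edgeR gave a log2 fold change of 1.04 (adjusted p = 0.0338) and DESeq2 1.05 (adjusted p = 0.0157), and both called the gene. Over all alternatives run on these libraries the log2 fold change stayed between 0.69 and 1.12 and the adjusted p between 0.0157 and 0.226. Zfp36 was called without HFD3 (1.12) and without LYC2 (1.12), and not without any other library. The lowest fold change was that without a scaling factor, where the median of all genes moved from −0.10 to −0.36 and the Zfp36 p was 0.0373.

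**Figure D4:**
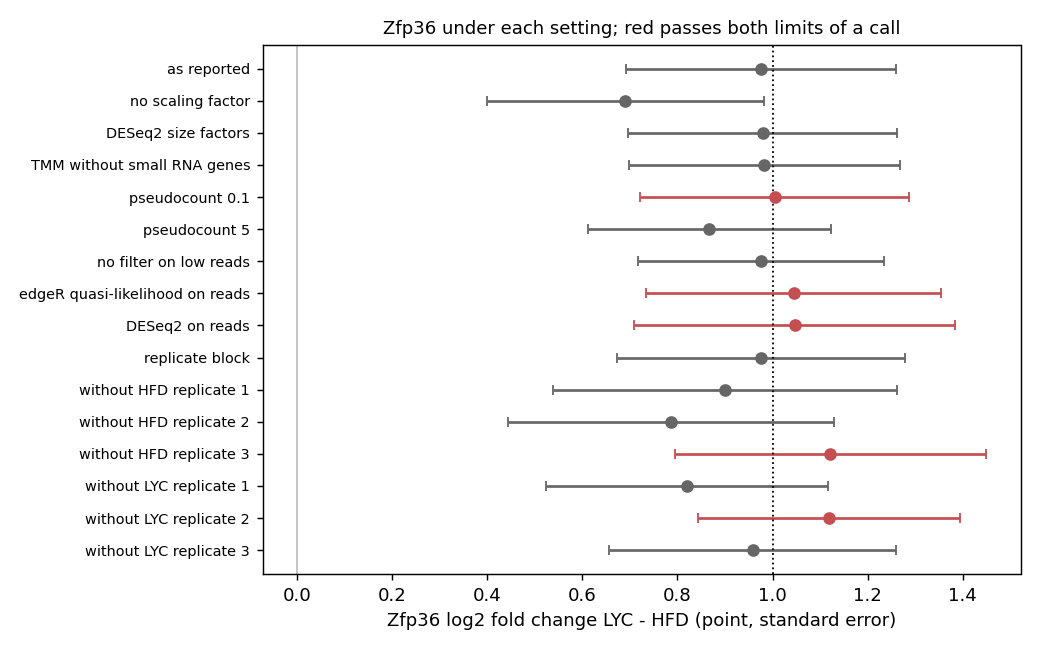
Log2 fold change of Zfp36, LYC against HFD (point and standard error), under each setting, with the fold limit of a call as a dotted line at 1 and settings that call the gene in red. Each estimate lies between 0.69 and 1.12, and 5 of the settings shown call it.

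Zfp36 is active in many cell types, among them myeloid cells, and bulk liver does not separate cell types. In these footprints, more cells that express a gene, more RNA per cell and more ribosomes per mRNA cannot be told apart. The hepatocyte markers matched the labelled tissue, with Alb, serum albumin, at 13379 to 29641 RPKM and 8 of 9 listed markers in the table. Cps1, a urea cycle enzyme, was the only hepatocyte marker called, higher in LYC (log2 fold change 1.08, limma adjusted p = 0.0545), and it lost that call without any library but LYC3 (0.90 to 1.11), without a scaling factor (0.78) and with no filter (limma adjusted p = 0.0989). Of 12 Kupffer cell and macrophage markers, 10 were tested and none was called, and their summed level was 223 to 314 RPKM in HFD and 157 to 258 RPKM in LYC. The 10 neutrophil and lymphocyte markers summed to 3.40 to 5.23 RPKM in HFD and 21.2 to 28.9 RPKM in LYC, on 4 to 19 reads a library. Camp, Retnlg and Nkg7 of that list were at 0 in all libraries, and none of the 10 passed the filter. The higher sum in LYC came mainly from the neutrophil markers S100a8 (means of 0.193 RPKM in HFD and 9.11 in LYC), S100a9 (0.525 and 7.72) and Ly6g (2.27 and 5.38). The lymphocyte markers pointed both ways, with means in HFD and LYC of 0.184 and 1.22 RPKM for Cd3d, 0.401 and 0.719 RPKM for Ms4a1, 0.388 RPKM and no read for Cd3e, and 0.546 RPKM and no read for Cd79a. These low counts are not a uniform rise of the list, and their part in the Zfp36 result was not tested. Endothelial, stellate cell and cholangiocyte markers had no call. Of 7 erythroid markers 3 were tested, and Alas2, the first enzyme of heme synthesis in red cells, was called higher (log2 fold change 1.01, limma adjusted p = 0.0378), and lost the call without HFD1, HFD2, LYC1 or LYC3 (0.83 to 0.99), without a scaling factor (0.72) and with a pseudocount of 5 (0.94). The globin genes did not move together, with Hba-a2 at −0.39 (limma adjusted p = 0.444) and Hbb-bs at 0.70 (limma adjusted p = 0.161), neither called, and with Hbb-bt, untested, at means of 15.4 RPKM in HFD and 5.55 in LYC.

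The genes whose centred profiles over the 6 libraries were nearest to that of Zfp36 were Eif1ad, Spag7, Alas2, Vps25 and Ifnar2. Their root mean square differences from it were 0.0888, 0.0975, 0.121, 0.127 and 0.128 on the log2 scale, where the median of the genes tested was 0.730. Of the 9 other early genes Jun was nearest, at 0.595, and Egr1 farthest, at 1.27. Apart from Jun these genes failed the filter on low reads, so single reads weigh on their distances.

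Levels of the 10 genes can be set in order, as RPKM is per length. The mean over 6 libraries was 32.9 RPKM for Zfp36, 8.72 for Jun, 7.44 for Junb, 6.93 for Ier2, 3.45 for Btg2, 2.91 for Egr1, 1.59 for Myc, 0.800 for Fos, 0.707 for Atf3 and 0.251 for Ier3. Zfp36 and Jun were the only neighbours whose ranges did not overlap, so the order from Jun downwards is loose. It also differed between the groups. Egr1 was above Btg2 in HFD (3.90 and 2.35 RPKM) and below it in LYC (1.92 and 4.54 RPKM). Junb was above Ier2 in HFD (9.30 and 7.61 RPKM) and below it in LYC (5.58 and 6.25 RPKM). Fos was the lowest gene in HFD (0.449 RPKM) and Ier3 in LYC. In HFD the mean of Zfp36 was above that of 87.0% of the genes above 0, and the mean of Fos above that of 22.4%. The length in RPKM is that of the whole transcript, UTRs included, where few footprints fall. The coding sequence was 15.4% of that length in Btg2, 31.4% in Jun and 54.2% in Zfp36. Per coding length, Zfp36 and Jun kept ranks 1 and 2, and Btg2 moved from rank 5 to rank 3.

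Set beside the sites in the 3′ UTR, the differences pointed both ways. Of the 6 genes with a TATTTAT site, the log2 difference was above 0 for Fos (0.26), Jun (0.057), Btg2 (0.65) and Zfp36 (0.98), and below 0 for Atf3 (−0.52) and Ier3 (−0.48). Of the 4 without one it was −0.59 for Junb, −0.80 for Egr1, −0.038 for Ier2 and 1.02 for Myc. Apart from Zfp36 and Jun, these are values of genes too low to be tested, and the signs of Fos, Jun and Ier2 were not stable. Fos was at −0.56 with a pseudocount of 0.1 and at −0.50 without LYC3, and Ier2 at 0.25 without HFD1. The sizes of Atf3, Ier3, Egr1 and Myc followed the pseudocount. They were −2.02, −1.94, −1.79 and 2.19 with one of 0.1, and −0.13, −0.12, −0.32 and 0.38 with one of 5.

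Around the 10 genes, 10 lists of related genes held 153 symbols, of which 149 were in the table and 71 were tested. Of those 2 were called higher and 5 lower in LYC, 9.86% against 13.3% over all genes tested. The median log2 fold change of the 71 was −0.39, against −0.10 over all. A gene can pass the filter through the reads of 1 group alone. That favours a lower value where the group is HFD and a higher one where it is LYC. The signs and medians of the lists below carry this limit. Over all genes tested 404 were called higher and 364 lower, and no list had more than 1 call in either direction.

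Upstream of the early genes, the MAPK, Srf and Creb list had 21 of 28 genes tested, with a median of −0.25. Map2k1, the kinase MEK1, stood at 18.1, 20.2 and 10.4 RPKM in HFD1 to HFD3 and at 24.2, 32.0 and 41.3 RPKM in LYC1 to LYC3. It was called higher, with a log2 fold change of 1.26 (limma adjusted p = 0.0338), and lost the call without HFD2 (1.27), HFD3 (1.00) or LYC3 (1.06), and without a scaling factor (0.97). Mapk3, the kinase ERK1 that MEK1 activates, stood at 9.94, 15.0 and 16.2 RPKM in HFD and at 0, 1.81 and 5.48 RPKM in LYC. As Mapk3 passed the filter through its HFD reads alone, the filter favoured a lower value. It was called lower, by −2.28 on the log2 scale (limma adjusted p = 0.0524), on 5 LYC reads. It lost the call or failed the filter without any library but LYC3 (−1.58 to −2.46). It also lost the call with a pseudocount of 0.1 (−3.54, limma adjusted p = 0.137) and with no filter (−2.28, limma adjusted p = 0.121). With a pseudocount of 5 it was called at −1.25.

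Of 7 close relatives of Zfp36 and Btg2, 5 were tested and 1, Zfp36l1, was called. All 5 had a log2 fold change below 0, as 55.0% of all genes tested did, with a median of −0.88. Zfp36l1, which binds the same AU-rich motif as Zfp36, stood at 52.6, 37.0 and 41.4 RPKM in HFD1 to HFD3 and at 11.9, 14.0 and 8.94 RPKM in LYC1 to LYC3. The groups were apart, and it was called lower by −1.55 on the log2 scale (limma adjusted p = 0.0166), also without any single library. Zfp36l1 was above Zfp36 in all 3 HFD libraries and below it in all 3 LYC libraries, an exchange that was not itself tested. Of 13 genes of deadenylation and AU-rich binding, 9 were tested with a median of −0.47, and none was called. Cnot1, the scaffold of CCR4-NOT, was the best covered of them at 0.20 (limma adjusted p = 0.686).

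Among other early response genes 13 of 31 were tested, 1 was called and the median was −0.0099. Pim1, a survival kinase, stood at 11.3, 6.75 and 12.3 RPKM in HFD1 to HFD3, had 2.90 RPKM on 3 reads in LYC1 and no read in LYC2 or LYC3. Pim1 passed the filter through its HFD reads alone, so the filter favoured a lower value. It was called lower by −2.57 on the log2 scale (limma adjusted p = 0.0323). The call was lost or the filter failed without HFD1, HFD3, LYC2 or LYC3 (−2.21 to −2.45). Its size followed the pseudocount, at −4.75 with one of 0.1 and −1.23 with one of 5. Errfi1, a feedback inhibitor of the EGF receptor with the most reads of the list, had a value of −0.55 (limma adjusted p = 0.193). The other Fos and Jun family genes had 3 tested, all below 0, with Jund at −1.12 (limma adjusted p = 0.192). The filter can favour that direction here too. The Egr, Nr4a and Klf list had 2 tested and the Dusp, Spry and Spred list, the feedback brakes of MAPK signalling, 4 tested, with no call in either.

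Of the integrated stress response list, which acts through Atf4 and overlaps with the control of Atf3, 5 of 19 genes were tested. Atf5, a leucine zipper factor, stood at 117, 178 and 184 RPKM in HFD1 to HFD3 and at 32.1, 38.9 and 32.1 RPKM in LYC1 to LYC3. It was called lower by −1.87 on the log2 scale (limma adjusted p = 0.00347), also without any single library. Herpud1, an endoplasmic reticulum stress protein, stood at 112, 121 and 148 RPKM in HFD and at 230, 278 and 146 RPKM in LYC, where LYC3 lay within the HFD range of RPKM, though above it once divided by the TMM factors, as in the test. It was called higher by 1.03 (limma adjusted p = 0.0593), and lost the call without any library but LYC3 (0.84 to 1.16), without a scaling factor (0.73) and under the replicate block (limma adjusted p = 0.0805). Of the Myc partners 4 of 11 were tested and all were below 0, a direction that the filter can favour. Mxi1, a Myc antagonist, was called lower by −1.88 on the log2 scale (limma adjusted p = 0.0442), on 4 LYC reads. Like Mapk3 and Pim1, it passed the filter through its HFD reads alone, which favoured a lower value. It lost the call or failed the filter without HFD1, HFD2, HFD3 or LYC2 (−1.79 to −1.95). It also lost the call with a pseudocount of 0.1 (log2 fold change −3.18, limma adjusted p = 0.133) and with one of 5 (−0.89). The call was lost too with no filter (−1.88, limma adjusted p = 0.121) and with DESeq2 (−2.14, adjusted p = 0.0626). The p53 targets had 5 tested and no call.

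**Figure D5:**
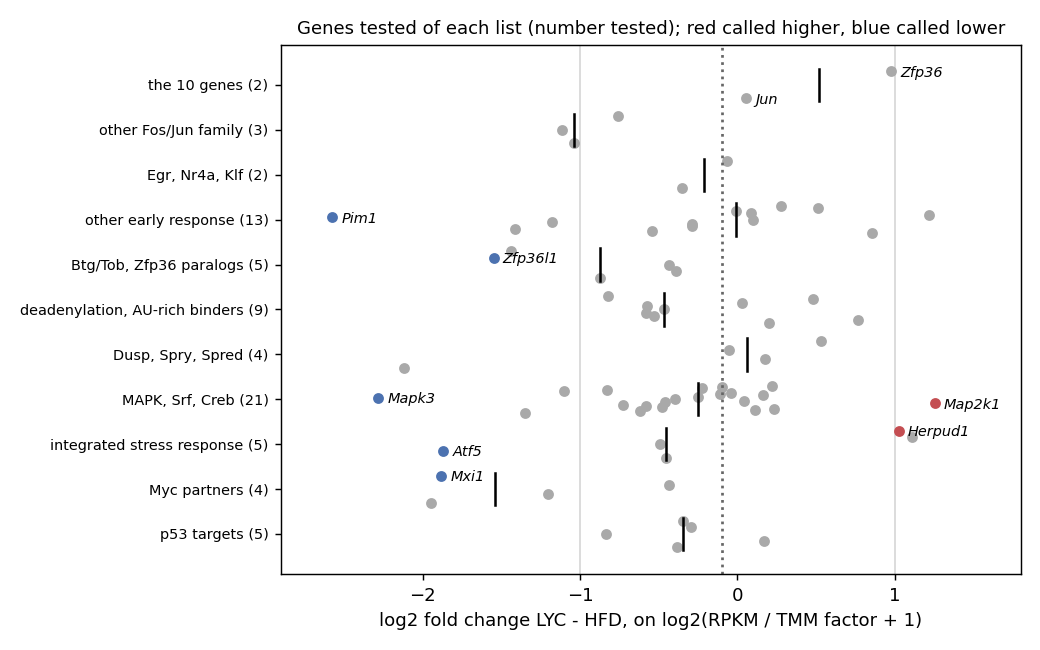
Log2 fold change, LYC against HFD, of each gene tested in the 10 genes and the 10 related lists (number tested in brackets; red called higher, blue called lower, grey not called), with the list median as a bar, the median of all genes tested as a dotted line at −0.10 and the fold limits of a call as thin lines at −1 and 1. Zfp36 lies just under the upper limit and Zfp36l1 beyond the lower one.

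In the table labelled RNA-seq, edgeR called 16.6% of 5921 genes, and of the 10 early genes Zfp36 alone, at a log2 fold change of 1.04 (adjusted p = 0.0274). As these counts repeat the footprint libraries, this adds no independent measurement. There Lars2, the mitochondrial leucyl-tRNA synthetase, held 35.9% to 40.3% of all LYC counts and 6.68% to 15.0% of all HFD counts. Lars2 was picked with its values in view. Scaled by total counts, which include Lars2, Zfp36 read −0.055 (edgeR adjusted p = 0.892) and the median of all genes −1.11.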

How the data were processed

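Livers of HFD and LYC mice had been profiled by Ribo-seq (3 libraries each), with 6 further libraries labelled RNA-seq. The members and the lists of genes were chosen with earlier results of these data known. Samples were grouped by their titles. The authors used cutadapt and bowtie2 to clean reads, STAR to align them to the GRCm38/mm10 genome and FANSE2 to quantify genes (versions not given in the sources used here). The authors deposited RPKM for the Ribo-seq libraries, and read counts with RPKM for those labelled RNA-seq. Counting is not stated to use strand, so reads of overlapping antisense genes cannot be told apart.

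RPKM comes in whole multiples of what 1 read is worth. Reads were worked back from those multiples with the gene lengths that the counts and RPKM of the second table imply. This gave whole reads for 71.9% to 72.4% of the values above 0. A value counted as whole within 0.02 reads of a whole number, that is 2% of 1 read, with a slightly wider margin for the largest values. The lengths of all 10 members came from that table, and a length was fitted for 4620 other genes. Of 25033 entries, 4 that share a name were left out of tests, and 26 had names turned into dates.

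The groups were compared with limma (moderated test, mean-variance trend, two-sided) on log2(RPKM / TMM factor + 1), for the genes left by edgeR's filterByExpr, with the TMM factors of those genes. The pseudocount of 1 makes fold changes of low genes too small. For a call, p unadjusted had to be below 0.01 and the log2 fold change beyond 1 in either direction, as in the study's results. edgeR's quasi-likelihood test was used on the counts labelled RNA-seq. Ratios of read rates compare summed reads over TMM-scaled totals, with exact 95% conditional binomial intervals that cover counting error only, since reads are not independent molecules. A count of 0 was taken to allow up to 3 reads, a fixed value. The exact two-sided 95% interval of a count of 0 reaches 3.69 reads. Exact permutation tests were two-sided.

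The genes named by rule are the 10 members, the genes called in each list or otherwise that with the most reads, and the 5 genes most like Zfp36. Not every gene that this rule names is described. Further neutrophil and lymphocyte markers, the globin genes, Alb, Errfi1 and Lars2 were named outside it, with their values known. The tests were tried on simulated data. Alternatives were other scalings, pseudocounts, filters and thresholds, edgeR and DESeq2 on the recovered reads, a replicate block and leaving out each library. AU-rich sites were searched in the transcript with the longest coding sequence of each gene. Tests ran in R 4.3.3 with DESeq2 1.42.0, edgeR 4.0.16 and limma 3.58.1. Other steps used scipy 1.17.1, pandas 2.3.3, numpy 2.4.6 and matplotlib 3.10.9 in Python 3.11.15.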

Additional observations from a re-analysis of the deposited data

How the results depend on the processing

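Of 130 values of the 10 genes under alternatives of the Ribo-seq fit, 119 were counted as the same. These kept their direction and side of the limits of a call, or moved by less than 1 SD where untested in the main fit. They include Btg2 without LYC1, which was then tested and called. The number of members called higher was 0 and became 1 with a pseudocount of 0.1, with edgeR or with DESeq2 on the recovered reads, each time Zfp36, at 1.00, 1.04 and 1.05. Leaving out single libraries gave 0 to 1, with Zfp36 called without HFD3 (1.12) and without LYC2 (1.12), and Btg2 without LYC1. The number called lower was 0 throughout. Jun reversed to −0.21 without a scaling factor and to −0.11 without LYC2, in a range of −0.11 to 0.21 without single libraries, less than its standard error of 0.31 from 0. Low depth in LYC limits what can be said of all members, most of all of the 8 that failed the filter. Jun rests on 28 LYC reads and Zfp36 on 81.

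Over all genes, 404 were called higher and 364 lower. The counts became 235 and 651 without a scaling factor, which took the share of calls that were higher from 52.6% to 26.5%. At p below 0.001 they were 196 and 101. With no filter 710 were called lower, and with a pseudocount of 5, 222. Without single libraries they ran from 268 to 574 higher and from 143 to 705 lower.

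The related lists had 2 genes called higher and 5 lower. The number higher was 0 without a scaling factor, 0 at p below 0.001, 1 at an adjusted p below 0.05, and 4 with edgeR or with DESeq2 on reads. The number lower was 12 without a scaling factor, 3 with a pseudocount of 0.1, 8 with no filter and 2 at p below 0.001. Without single libraries they ran from 0 to 2 higher and from 2 to 7 lower. Map2k1, Herpud1, Pim1, Mapk3, Mxi1, Cps1 and Alas2 each lost their call without at least 1 library, and Zfp36l1 and Atf5 without none. Map2k1 (0.97), Herpud1 (0.73), Cps1 (0.78) and Alas2 (0.72) also lost it without a scaling factor, Mapk3, Mxi1 and Cps1 with no filter, Mapk3 and Mxi1 with a pseudocount of 0.1, Mxi1 and Alas2 with one of 5, Mxi1 with DESeq2, and Herpud1 under the replicate block.

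With the replicate number as a block, Zfp36 had a p of 0.0113 and was not called, and of the related lists 1 gene was called higher and 8 lower. Same-numbered libraries of HFD and LYC are of different mice, and the correlations of their deviations were 0.108, 0.026 and 0.007. LYC1 was most like HFD1 and LYC2 most like HFD2, while LYC3 was most like HFD2 (0.065). Whether same-numbered libraries share more than a number, such as their preparation, was not tested further.

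In the table labelled RNA-seq, 551 genes were called higher and 434 lower. This became 134 and 2760 without a scaling factor, 856 and 671 with no filter, and 362 and 167 at p below 0.001. There 1 member, Zfp36, was called. The number was 0 without a scaling factor (−0.055) and at p below 0.001, and 0 to 1 without single libraries (lost without HFD1, HFD3 or LYC1). Jun reversed to −1.01 without a scaling factor, to −0.0016 without HFD2 and to −0.11 without LYC2, and leaving out single libraries gave −0.11 to 0.26.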
